A study of Mus musculus with 2 samples.

Results

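The genes described here belong to the pathway of the aryl hydrocarbon receptor: the receptor Ahr, its DNA-binding partner Arnt, the repressors Ahrr and Tiparp, and the induced cytochromes Cyp1a1 and Cyp1b1. They were taken as every probe set whose annotation names exactly 1 of these 6 genes, which gave 15 probe sets of the 34945 with a single symbol and 6 genes of 18193. They were selected on their intensities on these 2 arrays, since they were proposed with the differences between the arrays already known, and so these differences are a description and no test is given. The array labelled serum culture carried RNA from mouse cells labelled lymphoma and grown in medium with serum. The array labelled endothelial co-culture carried RNA from cells labelled lymphoma and grown with endothelial cells, which form the inner wall of blood vessels. The labels name no genotype, strain, age, lymphoma line, source of the endothelial cells, length of culture or separation of the cell types. With 1 array per condition there are no replicates and no p-values, and the number of arrays limits the precision.

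The aryl hydrocarbon receptor is a transcription factor of the bHLH-PAS family. It waits in the cytoplasm in a complex with the chaperone HSP90 until it binds a ligand, such as a planar aromatic pollutant, a product of tryptophan breakdown or a plant compound. It then enters the nucleus, pairs with ARNT and binds a short DNA element with the core GCGTG near its target genes. Among these targets, cytochromes of the CYP1 family oxidise aromatic compounds. AHRR competes for ARNT, and TIPARP, a mono-ADP-ribosyltransferase, modifies the receptor, so both act as feedback repressors. ARNT is shared with the hypoxia-inducible factors.

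Values are linear intensities per probe set, and those below a floor of 44.3, the median of all values, were set to it before log2 differences were taken as co-culture minus serum. A gene is called measured if its brightest probe set exceeded the floor on at least 1 array, and higher or lower if its difference reached 1 in size, which is 2-fold. Where 1 of the values lay under the floor, the fold is only a bound and is given as at least that size. Probe sets bind with unlike strength, so levels are compared between arrays and not between probe sets or genes. Of 11559 measured genes the share at least 2-fold higher was 4.52% and the share at least 2-fold lower 9.97%. The share higher among the called genes was 31.2%, against 55.9% with a floor at percentile 25, 41.5% with a pseudocount of 16 and 17.0% with scaling to the bacterial spikes.

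Lineage genes of leukocytes were mostly near background, although both samples are labelled lymphoma. Of 8 leukocyte markers with a probe set 1 was measured, Coro1a at 75.5 and 125, and the summed intensity of the list was 176 in serum and 199 in co-culture. Of 14 endothelial markers 3 were measured, with sums of 778 and 906, mostly from Egfl7 (473 and 532). Flt1, the one endothelial marker past 2-fold, was at least 2.11-fold lower in co-culture (93.3 and 26.4). Eng, also measured, was at least 1.32-fold higher (36.5 and 58.5). The other 11 were below the floor on both arrays, among them the defining genes Pecam1 (21.3 and 18.4) and Cdh5 (19.6 and 44.1). Most of these 11 read higher in co-culture, and Pecam1 and Tek read lower. The median of all probe sets was itself 36.9 in serum and 50.7 in co-culture, so values this dim are not read as differences. All sums here take in every gene of a list with a probe set, also those below the floor. Of 8 stromal markers 5 were measured (sums of 353 and 387), and of 3 liver markers 2 (sums of 61.3 and 129). Apoa1, the liver marker above the floor on both arrays, read 45.3 and 48.7. Of 4 epithelial markers 1 was measured (sums of 93.8 and 194). This was Epcam (59.6 and 128, 2.14-fold higher, but 0.10 in log2 by its second probe set). Of 6 early embryonic markers 2 were measured (sums of 180 and 667, of which Lin28a gave 59.4 and 534). The 3′ to 5′ ratio of control transcripts, a sign of RNA length, was higher on the serum array for beta-actin (3.56 against 2.05), Gapdh (2.54 against 1.88) and Tfrc (13.2 against 5.03). The part of these differences in the results was not tested. In RNA from a whole culture, fewer cells of a type and less RNA per cell cannot be told apart.

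The 250 bases before the annotated start of the 4 known targets are shown because the receptor binds the core GCGTG in the regulatory DNA of such genes. They come from RefSeq (GRCm38.p6) and run 5′ to 3′ on the strand of the gene, with each GCGTG of either strand in capitals, where CACGC is the core read from the opposite strand. The windows are chr9:57697363-57697612 on the plus strand for Cyp1a1, chr17:79715062-79715311 on the minus strand for Cyp1b1, chr3:65528197-65528446 on the plus strand for Tiparp and chr13:74292332-74292581 on the minus strand for Ahrr.
Cyp1a1: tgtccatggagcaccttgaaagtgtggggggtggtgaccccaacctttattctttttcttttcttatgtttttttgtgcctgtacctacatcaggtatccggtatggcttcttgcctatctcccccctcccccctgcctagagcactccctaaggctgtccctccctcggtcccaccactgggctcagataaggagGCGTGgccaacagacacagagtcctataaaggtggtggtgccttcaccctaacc
Cyp1b1: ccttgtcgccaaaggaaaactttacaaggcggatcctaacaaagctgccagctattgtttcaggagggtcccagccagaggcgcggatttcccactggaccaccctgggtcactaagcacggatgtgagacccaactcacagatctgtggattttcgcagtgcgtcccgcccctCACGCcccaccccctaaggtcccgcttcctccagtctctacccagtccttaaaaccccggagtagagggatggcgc
Tiparp: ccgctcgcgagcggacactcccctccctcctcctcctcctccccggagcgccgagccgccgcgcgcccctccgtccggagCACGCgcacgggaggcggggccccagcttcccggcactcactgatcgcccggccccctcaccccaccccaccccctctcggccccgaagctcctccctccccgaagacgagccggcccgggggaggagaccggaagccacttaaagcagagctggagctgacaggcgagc
Ahrr: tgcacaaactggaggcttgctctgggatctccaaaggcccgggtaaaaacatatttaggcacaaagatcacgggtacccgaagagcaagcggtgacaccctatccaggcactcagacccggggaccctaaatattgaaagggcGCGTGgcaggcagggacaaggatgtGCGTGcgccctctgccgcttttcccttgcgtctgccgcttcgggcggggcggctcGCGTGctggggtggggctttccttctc

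Cyp1a1, Cyp1b1 and Tiparp each held 1 core in this window and Ahrr held 3. In Cyp1a1 the core ended 50 bases before the start, upstream of a TATAAA match 25 to 30 bases before it. In Cyp1b1 it lay 72 to 76 bases before the start and in Tiparp 166 to 170. The longer form TNGCGTG, which contains the core, was found once, in Ahrr, 23 to 29 bases before the start. The window of Arnt, which is not counted among the targets here, also held 1 core, 25 to 29 bases before its start, and Ahr had no window to search. Among all 32851 windows of this length, 28.2% held the core on either strand, 2.77% held it 3 times or more and 4.10% held the longer form. The GC content was 53.6% for Cyp1a1, 58% for Cyp1b1, 57.2% for Arnt, 60.4% for Ahrr and 75.2% for Tiparp, against a median of 52.4% over all windows. The core is also a form of the element of the hypoxia-inducible factors, whose other form, ACGTG, was in none of the 5 windows and in 16.6% of all. Among measured genes with a window, 4756 held the core and 4638 did not. These counts are of genes, and the 32851 windows belong to 27025 genes, so they do not compare directly with the 28.2% of windows. Of those with the core 3.78% were at least 2-fold higher, and of those without it 4.87%. A match is a description of the sequence, not a binding site. Sequence farther upstream than these 250 bases was not searched, so a count here is not a count for the regulatory DNA of the gene.

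**Figure D1:**
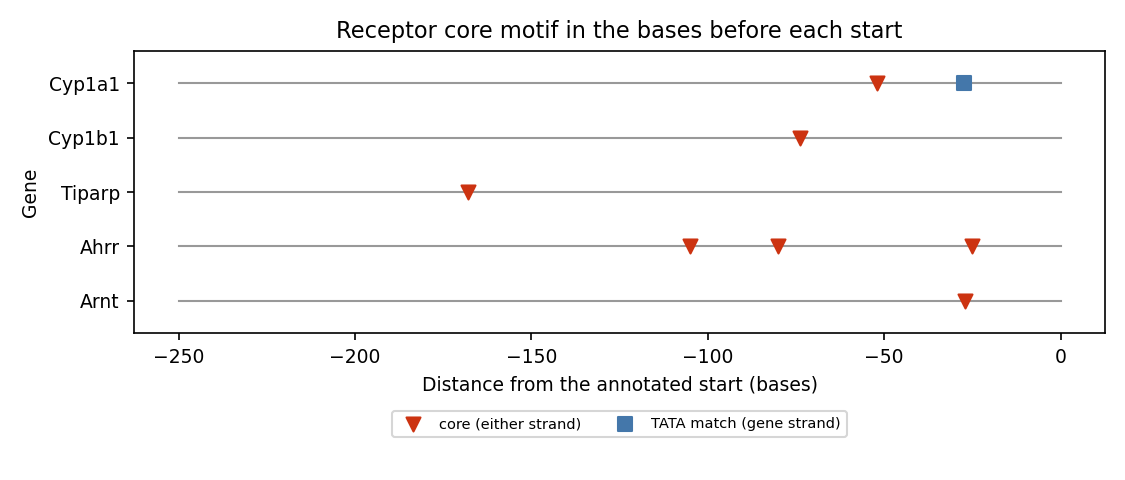
Position of the receptor core motif (triangles, either strand) and of a TATA match (square, strand of the gene) in the 250 bases before the annotated start of 5 genes, with distance in bases on the horizontal axis. Ahrr holds 3 cores and the other genes 1 each.

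Both induced cytochromes passed the 2-fold limit on the side of co-culture. Cyp1a1, which oxidises polycyclic aromatic compounds and is a standard readout of receptor activity, read 50.8 in serum and 1783 in co-culture. The serum value lay just above the floor and the co-culture value far above it, a difference of 5.13 on the log2 scale, or 35.1-fold. This was the highest of 11559 measured genes and of 21156 measured probe sets. Cyp1a1 has 1 probe set, 1422217_a_at, so no other one measures its probe error. With the floor at 200 it was at least 8.92-fold higher, and with the floor at percentile 75 at least 4.58-fold.

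Cyp1b1, which metabolises oestradiol and aromatic hydrocarbons and is used in many tissues outside the liver, was at least 2-fold higher by all 3 of its probe sets, as were 8.16% of all measured probe sets. The brightest, 1416612_at, read 1589 in serum and 4590 in co-culture, or 2.89-fold. Probe set 1416613_at read 161 and 819, or 5.10-fold, and 1432081_at read 48.5 and 127, or 2.61-fold. These log2 differences had a mean of 1.75 ± 0.52 (SD over 3 probe sets of 1 pair of arrays), and the pooled SD within genes was 0.60 over 5478 genes. Differences at least as high were found for 2.67%, 0.449% and 3.75% of all measured probe sets, in that order. The gene ranked 153 of 11559 by its brightest probe set.

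Cyp1a2, the closest relative of Cyp1a1 and a cytochrome best known from liver, was below the floor on both arrays (20.0 and 9.79). Of the 70 other cytochromes P450 with a probe set 14 were measured. Of these 1 was at least 2-fold higher and 5 lower, where 4.52% and 9.97% of all measured genes were. Their median log2 difference was -0.30 against -0.06 over all measured genes. The higher one was Cyp26b1, which degrades retinoic acid (at least 4.47-fold). The lower ones were Cyp27a1, of bile acid synthesis (5.10-fold), the oxysterol hydroxylase Cyp39a1 (4.68-fold), Cyp2c23 (at least 4.64-fold), Cyp2j6 (at least 2.49-fold) and Cyp2b10 (at least 2.11-fold, with -0.21 on the log2 scale for its other probe set).

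**Figure D2:**
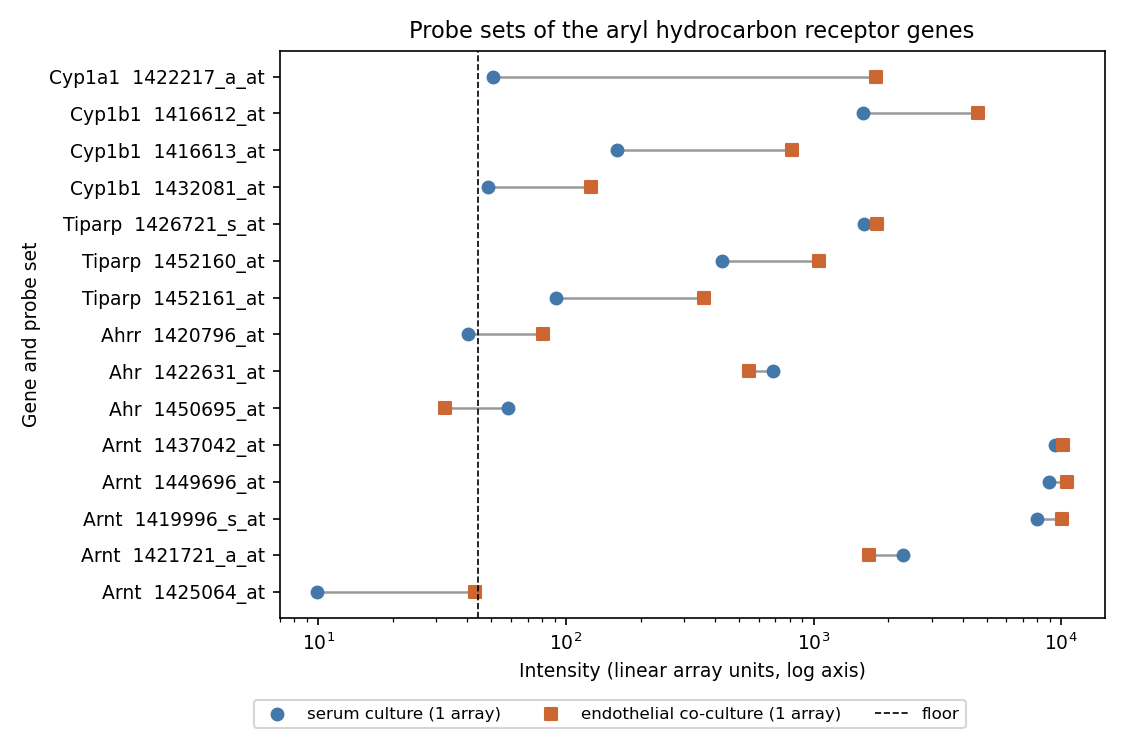
Intensity of the 15 probe sets of the 6 genes on the serum array (circles) and the co-culture array (squares), on a log axis, with the floor of 44.3 as a dashed line. Cyp1a1 goes from 50.8 to 1783, all 3 probe sets of Cyp1b1 and 2 of 3 of Tiparp are over 2-fold higher, and those of Ahr are lower by less than 2-fold after the floor.

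The repressors gave less uniform values. The 3 probe sets of Tiparp disagreed. Its brightest, 1426721_s_at, read 1594 in serum and 1797 in co-culture, a log2 difference of 0.17 that was -0.02 with scaling to the bacterial spikes. The other two were higher in co-culture: 1452160_at read 425 and 1052, or 2.47-fold, and 1452161_at read 91.3 and 360, or 3.94-fold. The suffix of the brightest marks a probe set that can match transcripts of more than 1 gene, while the other two carry no such mark. Over the 3 probe sets the mean log2 difference was 1.15 ± 0.91 (SD), wider than the 0.60 within genes at large. By the brightest probe set Tiparp is within 2-fold. Without probe sets of shared sequence it was 2.47-fold higher.

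Ahrr, which competes with the receptor for ARNT, read 40.2 in serum and 80.7 in co-culture by its only probe set. The serum value was below the floor, so the gene was at least 1.82-fold higher, which does not reach 2-fold. At the floor of percentile 25, an intensity of 12.8, it was 2.01-fold higher. Both values are dim: control probe sets for bacterial genes that are no part of the spike mix, which should bind nothing in these samples, reached 21.6 and 21.7.

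The receptor and its partner lay within 2-fold. Ahr, which binds the ligand, read 687 in serum and 551 in co-culture by 1422631_at, a log2 difference of -0.32. Its other probe set, 1450695_at, read 58.1 and 32.4, at least 1.31-fold lower since the co-culture value was below the floor. Both probe sets of the receptor were thus lower while those of Cyp1a1 and Cyp1b1 were higher. The difference of 1422631_at was smaller than the 0.60 within genes. That of 1450695_at is a bound, and it was -0.84 without the floor.

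Arnt, the obligate partner, had 5 probe sets, of which 4 were above the floor. Of these, 3 were slightly higher in co-culture. They read 9460 and 10194 (1437042_at), 8950 and 10572 (1449696_at), and 8002 and 10030 (1419996_s_at). The fourth, 1421721_a_at, read 2297 and 1681 and was lower. The log2 differences ran from -0.45 to 0.33, and that of the brightest, 0.11, became -0.09 with scaling to the bacterial spikes. The fifth, 1425064_at, was below the floor on both arrays (9.89 and 43.1) and gives no difference.

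Of the 6 genes, all measured, 2 were at least 2-fold higher and 0 lower by their brightest probe sets, against the 4.52% and 9.97% of all measured genes given above. Of their 14 measured probe sets 6 were at least 2-fold higher and 0 lower, where 8.16% and 8.06% of all measured probe sets were. These 6 belong to Cyp1a1, Cyp1b1 and Tiparp, and probe sets of 1 gene are not independent. The median log2 difference of the 6 genes was 0.52, and that of all measured genes was -0.06. The value of 0.52 lies between Tiparp (0.17 by the brightest of 3 probe sets that disagreed) and Ahrr (0.87, a lower bound). Because the genes were proposed with these values known, the counts support nothing beyond the values themselves.

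**Figure D3:**
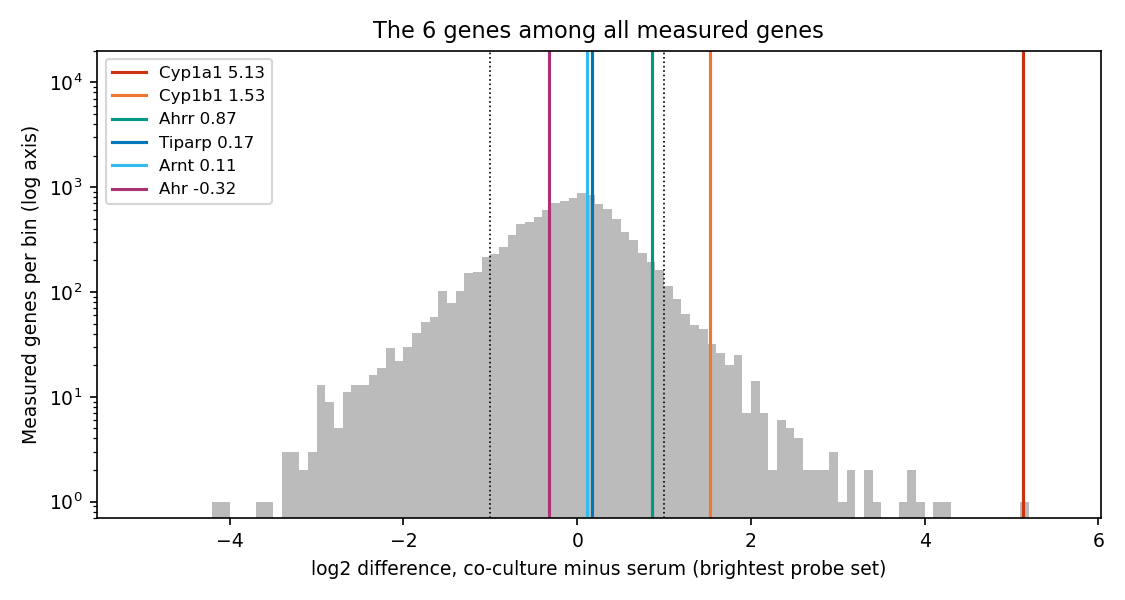
Number of measured genes (log axis) by log2 difference, co-culture minus serum, of the brightest probe set in bins of 0.1, with dotted lines at 2-fold and a coloured line for each of the 6 genes. Cyp1a1 at 5.13 is the highest of all measured genes. Cyp1b1 lies at 1.53, and Ahrr at 0.87 is a lower bound. Tiparp, Arnt and Ahr lie within 2-fold, and Tiparp (0.17) and Arnt (0.11) change sign with scaling to the bacterial spikes.

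Other genes around the receptor were placed in 7 lists with 65 genes that had a probe set of their own, of which 43 were measured. Of these 4 were at least 2-fold higher and 3 lower, where 4.52% and 9.97% of all measured genes were. The median log2 difference was 0.01. Among the 15 other target genes with a probe set 7 were measured. Ptgs2, the inducible cyclooxygenase, read 201 and 1156, or 5.74-fold higher, and its other probe set was higher by 1.38 on the log2 scale. Nqo1, a quinone reductase that the receptor and the stress factor NRF2 both induce, read 739 and 2679, or 3.63-fold higher. Nfe2l2, the gene of NRF2, had a log2 difference of 0.07. The selenium-binding protein gene Selenbp1 went the other way, from 2659 to 399, or 6.66-fold lower, and by -3.08 on the log2 scale by its other probe set. Aldh3a1 (8.35 and 2.70) and Gsta2 (36.2 and 27.4), which with Cyp1a1, Cyp1a2 and Nqo1 form the classical gene battery of the receptor, were below the floor on both arrays.

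Kynurenine, a product of tryptophan, is a precursor of receptor ligands. Of the enzymes that start its synthesis, Ido1 read 12.5 and 30.3 and Ido2 10.3 and 34.2, below the floor on both arrays, and Tdo2 read 33.8 and 62.1, or at least 1.40-fold higher. Afmid, the formamidase that completes it, read 71.5 and 45.5, above the floor on both arrays, a log2 difference of -0.65 (0.10 by its other probe set). Of 11 genes of tryptophan breakdown 5 were measured, with 0 higher and 1 lower: Kyat3, a kynurenine aminotransferase, which read 485 and 105, or 4.63-fold lower. The median of these 5 was -0.65.

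Of 5 genes on the chaperone list only 2 had a probe set of their own, so the others were not assessed. Of these 2 only Hsp90aa1, the inducible HSP90, was measured (12775 and 14121, a log2 difference of 0.14). Judged by the brightest probe set, all 8 measured coactivators were within 2-fold, with a median of 0.37, where the steroid receptor coactivator Ncoa1 had the largest difference (-0.77, and -0.86 by another probe set), followed by the acetyltransferase Ep300 (0.66). The 5 other measured probe sets of the mediator subunit Med1 ran from -1.07 to 0.83. Of the other bHLH-PAS factors 7 of 13 were measured, and 1 was lower: Npas3, a neuronal factor, at least 2.01-fold, with log2 differences of 0.01 and 0.13 by its other probe sets. Hif1a, which also pairs with ARNT, had a log2 difference of 0.29, but -0.49 and -0.37 by other probe sets. Of 5 genes of electron and haem supply to cytochromes P450 1 was higher, the electron donor Cyb5a, which read 929 and 1881, or 2.02-fold. Of 10 measured relatives of Tiparp in the PARP family 1 was higher, Parp4, found in vault particles, which lay just above the floor in serum and read 144 in co-culture, or 2.88-fold.

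**Figure D4:**
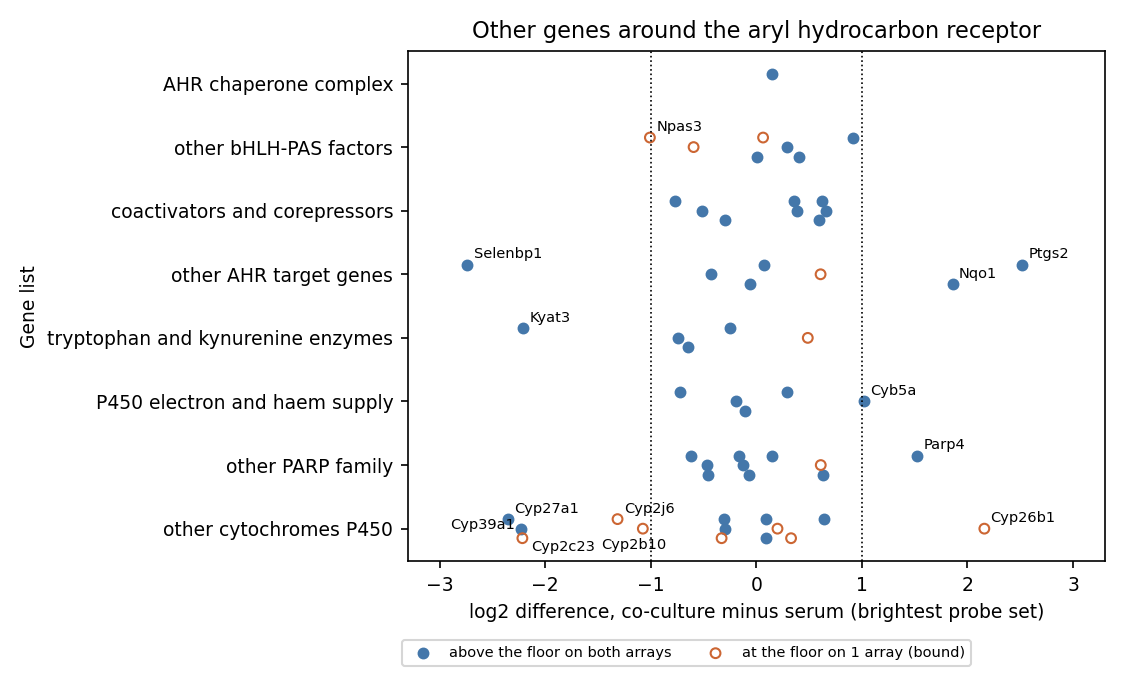
Log2 difference, co-culture minus serum, of each measured gene of 8 lists by its brightest probe set, with dotted lines at 2-fold; filled points were above the floor on both arrays and open points on 1, where the difference is a bound. Named genes are those past 2-fold, among them Ptgs2 and Nqo1 on the higher side and Selenbp1 and Kyat3 on the lower.

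With 2 arrays the pattern of a gene is a single log2 difference, and likeness to Cyp1a1 was taken as the distance to its 5.13. Among the 9585 genes above the floor on both arrays, Cyp1a1 included and clone symbols left out, the nearest was the secreted protease Htra1 at 4.14, a distance of 0.99. It was followed by the Ras pathway inhibitor Spred2 (3.84), the TGF-beta target Pmepa1 (3.79), Irf2bpl (3.37) and the RNA-binding protein Lin28a (3.17). Because Cyp1a1 had the highest difference of these genes, the nearest ones are the next highest and show no likeness beyond that. The distances rest on the serum value of Cyp1a1, which lies close to the floor.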

How the data were processed

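Total RNA was purified with a column kit and hybridised as biotin-labelled cRNA, per the labels' protocols. The deposited table holds 1 linear intensity per probe set and array for 45101 probe sets. Array software, background correction and scaling are not stated in the labels used here. With 2% of values cut from either end, both arrays had a mean of 500.003, which scaling to a common mean would give; this is inferred from the values. Probe sets with 1 symbol in the platform annotation were used, with 34754 symbols taken from RefSeq through the gene number; control probe sets and 932 probe sets with several symbols were left out. A gene is represented by its brightest probe set, by mean log2 value after the floor. The error given is the SD of log2 differences between measured probe sets within a gene, pooled over genes; it covers probe error and not the spread between cultures.

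The member genes and lists were chosen with earlier results of these data known. All 15 member probe sets are given. From each pathway list every measured gene past 2-fold is named, or the 2 with the largest differences where none is, and the 5 genes nearest to Cyp1a1; Nfe2l2, Aldh3a1, Gsta2, Cyp1a2, Ido1, Ido2, Tdo2, Afmid, Med1, Hif1a and the markers were picked with values in view. Alternatives, 9 in all, were a floor at percentile 25, at percentile 75 or at 200, a pseudocount of 16, subtraction of the median difference, quantile normalization, scaling to 18 bacterial spike probe sets, the mean over probe sets, and leaving out identifiers ending in _x_at, _s_at or _a_at. The steps were tested on simulated data. Python 3.11.15, numpy 2.4.6 and pandas 2.3.3 were used.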

Additional observations from a re-analysis of the deposited data

How the results depend on the processing

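The counts of member genes at least 2-fold higher (2, or 3 under 2 settings) and lower (0) held their size under all 9 alternatives. The genes did not stay the same: Ahrr joined at the floor of percentile 25 and Tiparp with the mean over probe sets, and without probe sets of shared sequence the 2 were Cyp1b1 and Tiparp. Cyp1a1 had a log2 difference of at least 2.20 with the floor at percentile 75 and at least 3.16 with the floor at 200, where its serum value lies below the floor. The setting without probe sets of shared sequence goes by the suffix of the identifier alone. It leaves out 1422217_a_at, the only probe set of Cyp1a1, and so gives no value. Whether this probe set matches other genes was not tested. Otherwise Cyp1a1 ranged from 4.75 to 5.19. It ranked highest in 5 of the 8 settings that gave a value, and 4, 6 and 2 at the floors of percentile 25, percentile 75 and 200. Tiparp moved from 0.17 to 1.15 with the mean over probe sets and to 1.31 without probe sets of shared sequence, both through its dimmer probe sets. Ahrr had no value at the 2 highest floors. Cyp1b1, Ahr and Arnt moved by less than the probe error.

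Of the 43 other pathway genes measured, 4 were higher and 3 lower, where 4.52% and 9.97% of all measured genes were. More genes count as measured at the floor of percentile 25: 9 of 58 were higher and 5 lower, where 12.6% and 9.90% of all were. Fewer count at percentile 75: 1 of 28 was lower, where 5.50% of all were. Over all genes 523 were higher and 1152 lower, against 2029 higher at percentile 25, 143 and 397 at percentile 75, 218 and 656 at 200, 853 higher with the pseudocount, 325 higher with spike scaling and 653 lower with the mean over probe sets. Spike scaling moved the median of all genes from -0.06 to -0.26. The Ahrr, Cyp1a1 serum and dimmest Cyp1b1 values lie near the floor, so their folds are the least precise.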
